A study of Arabidopsis thaliana with 18 samples.

Results

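CLE41 (AT3G24770), CLE44 (AT4G13195) and MOL1 (AT5G51350) were followed across 18 Affymetrix ATH1 arrays of sorted Arabidopsis root cells. Each gene was chosen by its locus and read from the single probe set whose annotation names that gene alone, so that they are 3 of the 13356 genes with such a probe set. The sorted cells carried an endoplasmic reticulum-localized GFP in wild-type Columbia plants, driven in 16 arrays by the promoter of ARR15, a type-A response regulator that cytokinin switches on. Roots of 8-day seedlings, about 200 per collection, were cut along their length into a basal segment (cambium), a middle segment (transition cambium) and an apical segment (procambium) before protoplasts were made and sorted. BAP, a synthetic cytokinin, was given at 100 nM for the last 48 hours to seedlings first grown for 6 days, and each zone of these plants was measured on 3 arrays. A reporter driven by cytokinin may also mark other cells once the hormone is added, so a change in a gene and a change in which cells were sorted cannot be told apart. Untreated plants gave 3 cambium, 2 transition cambium and 2 procambium arrays. A second reporter, ARR5::GFP, was sorted from undissected lower roots of seedlings aged 6 days on 2 further arrays. The labels give procambium and lateral root cap as its cells and list no BAP treatment for them.

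CLE41 and CLE44 encode precursors of the same secreted peptide, TDIF, a member of the CLE family of plant signalling peptides. TDIF is made in phloem and is received on procambial and cambial cells by the receptor kinase PXY, where it promotes division of the vascular stem cells and holds back their differentiation into xylem. MOL1 is a leucine-rich repeat receptor-like kinase, and mutants that lack it form more vascular tissue by lateral growth, so it is placed among the genes that restrain the cambium.

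Values are log2 signals, on which a difference of 1 is a factor of 2. A signal of log2 5 was used as the level below which a probe set counts as dim, and between 47.2% and 49.9% of probe sets reached it on each array. The 3 genes all passed the filter of at least 2 arrays at that level, as did 13202 probe sets over the 16 ARR15::GFP arrays. MOL1 reached it on 18 of 18 arrays, CLE41 on 15 and CLE44 on 9, of which all 9 were cambium or transition cambium arrays, so CLE44 passed only through the zones where it is high. None of the 5 cambium markers listed (ANT, KNAT1, CYCD3;1, WOX4 and PXY) has a probe set annotated to it alone, so the zone labels were not checked against them. The ARR15 transcript lay between 5.32 and 7.66 on the 9 BAP-treated arrays and between 2.51 and 3.12 on the 7 untreated ARR15::GFP arrays. The gene whose promoter drove the sorted GFP was thus dim on all 7 untreated arrays. RR16, the other of 6 cytokinin response regulators with a probe set of its own, lay between 4.61 and 7.44 with BAP and between 2.20 and 2.54 without it. The labels call arrays of a group biological replicates, and precision is limited by their number.

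**Figure D1:**
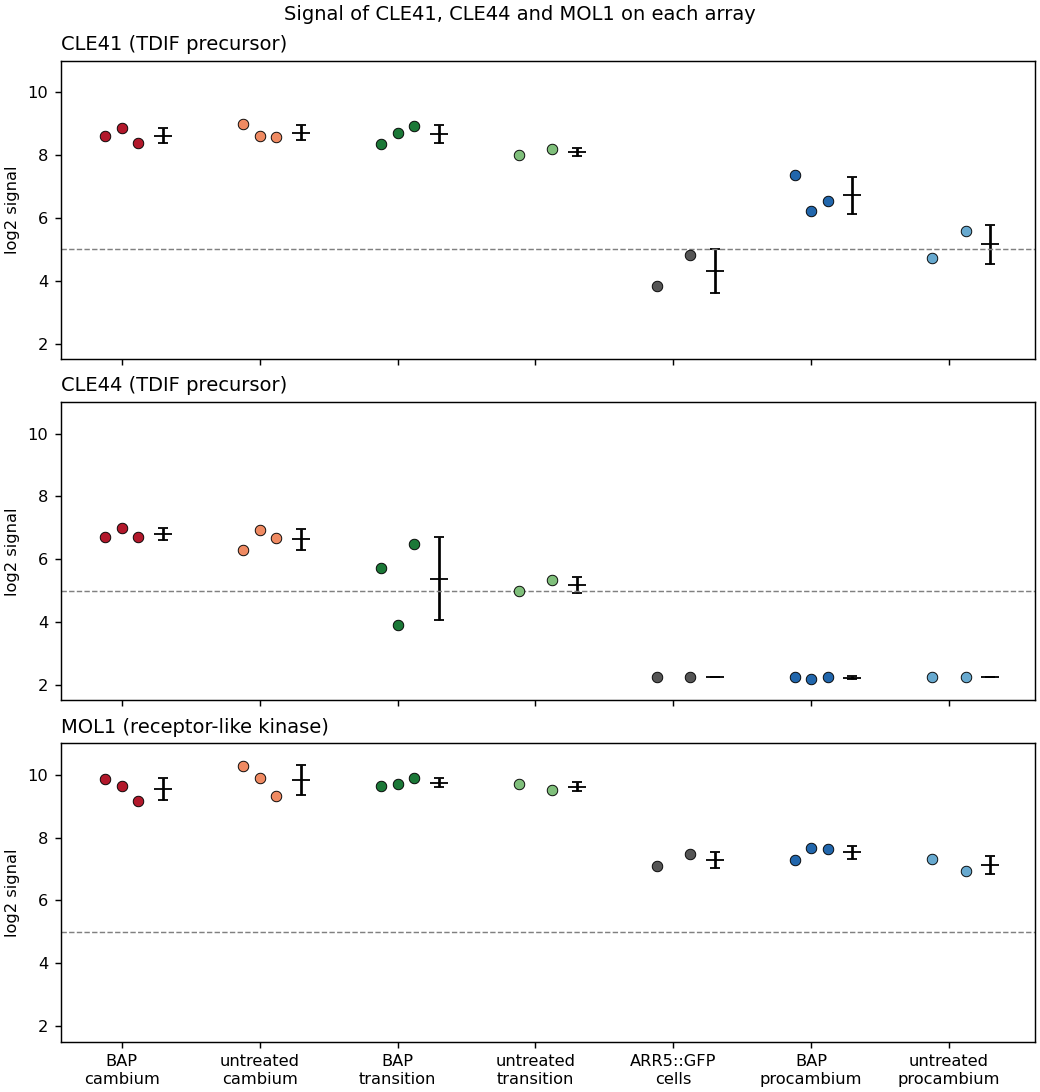
The plot gives the log2 signal (vertical axis) of CLE41, CLE44 and MOL1 on each of the 18 arrays by group (horizontal axis), with points for arrays, the mean and SD drawn to their right, and a dashed line at log2 5. CLE44 lies near its lowest value on all 7 procambium and ARR5::GFP arrays, and in CLE41 the 3 BAP-treated procambium arrays stand above the 2 untreated ones.

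CLE41 had a higher signal in the basal and middle root than at the apex. It read 8.60, 8.87 and 8.39 in BAP-treated cambium and 9.0, 8.60 and 8.57 in untreated cambium. In transition cambium it read 8.37, 8.72 and 8.92 after BAP and 8.01 and 8.19 without it. The apical sorts were lower, at 7.39, 6.24 and 6.55 in BAP-treated procambium and at 4.72 and 5.6 in untreated procambium. Every cambium and transition cambium array lay above every procambium array, and the BAP-treated procambium arrays lay above the untreated ones without overlap. ARR5::GFP cells gave 3.82 and 4.81, with the lowest mean of the 7 groups, and overlapped untreated procambium.

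CLE44, the other TDIF precursor gene, was read in cambium, mostly at lower values in transition cambium, and at the floor at the apex. It gave 6.71, 7.01 and 6.70 in BAP-treated cambium and 6.29, 6.94 and 6.66 in untreated cambium. In transition cambium it read 5.72, 3.91 and 6.48 after BAP and 4.98 and 5.35 without it. All 5 procambium arrays and both ARR5::GFP arrays lay between 2.18 and 2.25 and are at the floor of the background model, where values have no order among themselves. The BAP-treated transition cambium arrays were spread most, with an SD of 1.32. Replicate 2, the lowest of them, also had the highest AT1G65570 signal of the 5 transition cambium arrays, 7.65, a gene of the root cap list described further on, and the part of such cells in the result was not tested.

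MOL1 was well above log2 5 on every array, with the same contrast between the basal and apical parts. It read 9.85, 9.63 and 9.15 in BAP-treated cambium and 10.29, 9.90 and 9.33 in untreated cambium. In transition cambium it read 9.65, 9.71 and 9.90 after BAP and 9.72 and 9.52 without it. In procambium it read 7.29, 7.66 and 7.63 after BAP and 7.33 and 6.92 without it, and ARR5::GFP cells gave 7.10 and 7.47. The signal fell into 2 separate ranges, one for cambium and transition cambium and one for all procambium and ARR5::GFP arrays, and within each range the groups overlapped.

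For CLE41 the order of the group means was untreated cambium (8.72), BAP-treated transition cambium (8.67), BAP-treated cambium (8.62), untreated transition cambium (8.10), BAP-treated procambium (6.72), untreated procambium (5.16) and ARR5::GFP cells (4.31). The first 3 of these overlapped with their neighbours, as did the last 2, and the other neighbours did not. For CLE44 the cambium groups came first and overlapped, at 6.80 after BAP and 6.63 without. The transition cambium groups followed at 5.37 after BAP and 5.17 without, the first overlapping both its neighbours, and all of their arrays lay above the 3 groups at the floor. For MOL1 the 4 cambium and transition cambium means lay between 9.55 and 9.84, and a gap of 2.02 separated them from the 3 lower groups, whose means lay between 7.13 and 7.53.

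The first question was how the TDIF precursors and MOL1 differ along the root. Each zone was sorted by one and the same cytokinin-driven reporter, and in such pooled cells a smaller share of expressing cells and less RNA per cell cannot be told apart. In untreated roots, CLE41 averaged 8.72 ± 0.24 in cambium (SD, n = 3) and 5.16 ± 0.62 in procambium (n = 2), a log2 difference of 3.57 (95% interval 2.80 to 4.33, adjusted p = 6.01e-06 in limma). Of all probe sets tested, 4.24% differed by at least that much in either direction. MOL1 differed by 2.71 (2.07 to 3.35, adjusted p = 1.38e-05), a size that 8.45% of probe sets reached. CLE44 was at least 3.10-fold higher in cambium, since both procambium arrays were dim (adjusted p = 3.34e-05). With values below log2 5 raised to log2 5 the CLE44 difference was 1.63 (adjusted p = 0.00208). CLE41 and MOL1 were called higher, where 18.4% of probe sets were. CLE44 was called too, but it passed the filter only through cambium and transition cambium arrays. Its calls over procambium, here and below, are therefore given as a description.

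Transition cambium gave the same direction against the same 2 untreated procambium arrays. CLE41 averaged 8.10 ± 0.12 in transition cambium and 5.16 ± 0.62 in procambium (n = 2 each), which differed by 2.94 (standard error 0.39, adjusted p = 0.000108). MOL1 averaged 9.62 ± 0.14 in transition cambium and 7.13 ± 0.29 in procambium, a difference of 2.49 (standard error 0.33, adjusted p = 9.78e-05). CLE44 was at least 1.12-fold higher (adjusted p = 0.00222), although just 1 of the 2 transition cambium arrays was not dim. That call rests on values below log2 5: with these raised to log2 5 the difference was 0.17 (adjusted p = 0.802). In this comparison 15.6% of probe sets were called higher and the median of all of them was 0.12, against -0.01 with each array centred on its median.

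After BAP the zone differences kept their direction in all 3 genes, on arrays that share none with the untreated comparison. CLE41 averaged 8.62 ± 0.24 in cambium and 6.72 ± 0.59 in procambium (SD, n = 3 each), a difference of 1.90 (95% interval 1.21 to 2.58, adjusted p = 0.000364). MOL1 averaged 9.55 ± 0.36 in cambium and 7.53 ± 0.21 in procambium, a difference of 2.02 (1.45 to 2.59, adjusted p = 4.47e-05). CLE44 was at least 3.49-fold higher in cambium (adjusted p = 5.85e-06), against 16.3% of probe sets called higher. Differences at least as large in either direction were seen in 15% of probe sets for CLE41 and in 13.6% for MOL1.

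BAP-treated transition cambium was also above BAP-treated procambium. The difference was 1.94 for CLE41 (standard error 0.32, adjusted p = 0.000389) and 2.23 for MOL1 (standard error 0.27, adjusted p = 2.71e-05). CLE44 was at least 1.30-fold higher (adjusted p = 0.000203), with 1 of its 3 transition cambium arrays dim, and 15.7% of probe sets were called higher. With values below log2 5 raised to log2 5 the CLE44 difference was 0.74 (adjusted p = 0.0862).

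**Figure D2:**
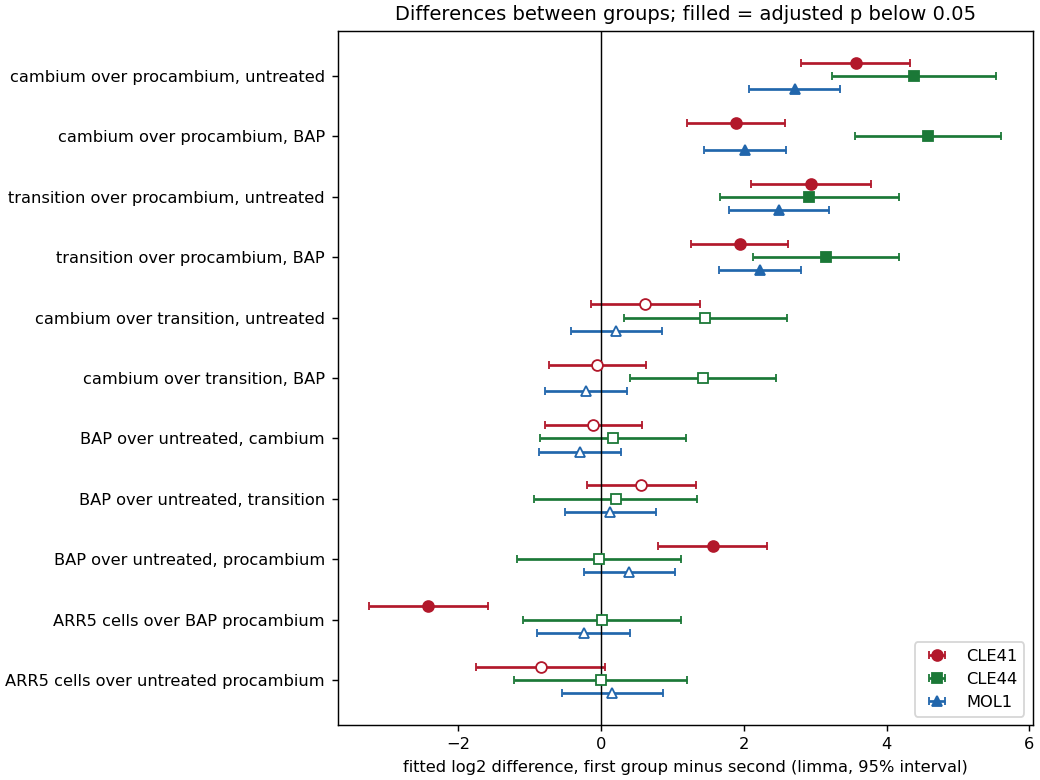
Each point is the fitted log2 difference (horizontal axis, first group minus second) for 1 comparison (vertical axis) with its 95% interval from limma, filled where the adjusted p was below 0.05. CLE41, CLE44 and MOL1 are filled in all 4 comparisons with procambium of the same treatment, and among the BAP effects CLE41 in procambium alone is filled (1.57). Positions of CLE44 against procambium or ARR5::GFP cells depend on the background model, because those arrays are at its floor.

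No member passed the test between cambium and transition cambium. In untreated roots cambium minus transition cambium was 0.62 for CLE41 (95% interval -0.14 to 1.39, adjusted p = 0.65) and 0.22 for MOL1 (-0.42 to 0.86, adjusted p = 0.898). CLE44 differed by 1.47 (0.32 to 2.61, adjusted p = 0.331), and its 3 cambium arrays lay above both transition cambium arrays. After BAP the same difference was -0.05 for CLE41 (-0.73 to 0.63, adjusted p = 0.999) and -0.21 for MOL1 (-0.78 to 0.37, adjusted p = 0.934). For CLE44 it was 1.43 (0.41 to 2.45, adjusted p = 0.246). Without BAP-treated transition cambium replicate 3 the CLE44 difference was 1.98 and passed the threshold (adjusted p = 0.0433), and without replicate 2 it was 0.70 (adjusted p = 0.623). Across all probe sets 0.757% were called in untreated roots and 1.26% after BAP.

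The second question was how the genes respond to cytokinin in each zone. In cambium BAP minus untreated was -0.10 for CLE41 (95% interval -0.79 to 0.58, adjusted p = 0.867), 0.17 for CLE44 (-0.85 to 1.19, adjusted p = 0.851) and -0.29 for MOL1 (-0.86 to 0.28, adjusted p = 0.493). In transition cambium it was 0.57 for CLE41 (-0.19 to 1.33, adjusted p = 0.369), 0.21 for CLE44 (-0.94 to 1.35, adjusted p = 0.871) and 0.13 for MOL1 (-0.51 to 0.77, adjusted p = 0.849). No member was called in either zone, where 14.9% and 9.4% of probe sets were. The intervals for CLE41 and MOL1 in cambium leave out changes of 1 in either direction, and that of CLE44 does not.

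In procambium CLE41 rose with BAP. It averaged 6.72 ± 0.59 in BAP-treated procambium (SD, n = 3) and 5.16 ± 0.62 in untreated procambium (n = 2), a 2.97-fold difference (log2 1.57, 95% interval 0.81 to 2.33, adjusted p = 0.00841 in limma). All 3 treated arrays lay above both untreated ones, of which 1 reached log2 5. The call was lost without untreated procambium replicate 1 (1.13, adjusted p = 0.124) and when only these 5 arrays were fitted (1.57, adjusted p = 0.122). MOL1 differed by 0.40 (-0.24 to 1.04, adjusted p = 0.438), and CLE44 stayed at its floor on all 5 arrays, so no size is given for it. In this comparison 14.1% of probe sets were called, and 7.61% were called higher.

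A root cap list gene moved with BAP in the procambium sort. AT1G65570, the 1 gene of the 5 in the root cap list with a probe set of its own, read 10.34 to 11.50 on the 3 BAP-treated procambium arrays and 2.94 and 3.75 in untreated procambium, a rise of at least 61.7-fold (adjusted p = 3.78e-05). EXPA7, an expansin gene of root hair cells and the 1 gene of 4 in the epidermis list that could be read, gave 2.39, 5.78 and 7.37 after BAP and 2.64 and 3.01 without it (adjusted p = 0.143). The BAP-treated procambium array with the highest CLE41 signal, replicate 1 at 7.39, was the one with the lowest AT1G65570 and EXPA7 signals. ARR5::GFP cells had more of both markers, 13.81 and 14.21 for AT1G65570 and 9.75 and 7.67 for EXPA7, with less CLE41. The part of such cells in the CLE41 result was not tested. The phloem list could be read for 1 gene of 7, AT5G02460, which did not exceed 2.33 on any array, and the xylem list for 0 of 9. The cortex and endodermis list could be read for 1 gene of 3, AT1G62500, which did not exceed 3.44.

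**Figure D3:**
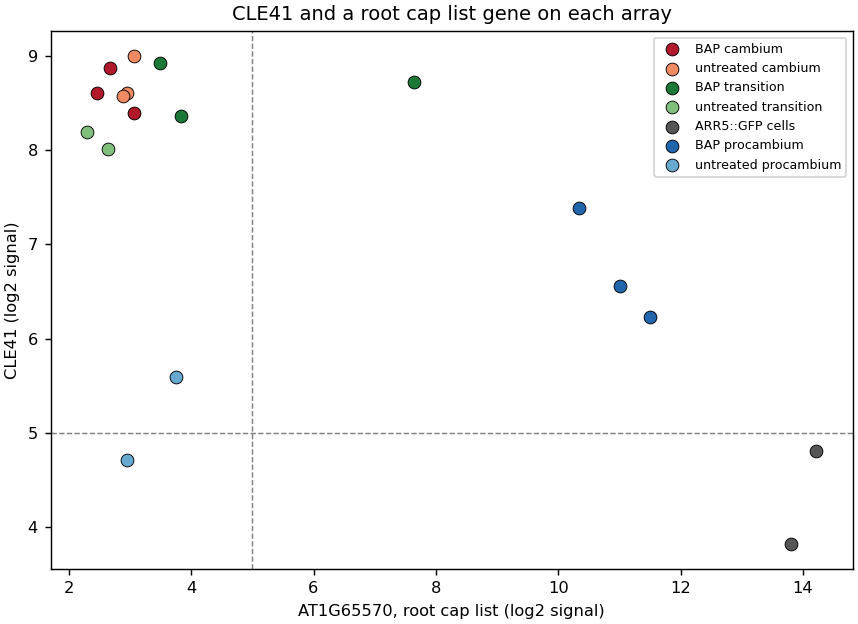
Each point is 1 array, with the log2 signal of AT1G65570 from the root cap list on the horizontal axis and that of CLE41 on the vertical axis, and dashed lines at log2 5. The 3 BAP-treated procambium arrays have a high AT1G65570 signal with CLE41 between 6.24 and 7.39, while the 2 ARR5::GFP arrays have more AT1G65570 and CLE41 below log2 5.

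The BAP effect on CLE41 was set against that in the other zones by a test of the difference itself. In cambium it was -0.10 and in procambium 1.57, a difference of -1.67 (95% interval -2.70 to -0.65, adjusted p = 0.0424), in a comparison where 8.97% of probe sets were called and 5.13% were called lower. This p lay close to the threshold and passed it in some settings only: without untreated procambium replicate 1 the difference was -1.23 (adjusted p = 0.188), and with the arrays centred on their medians it was -1.67 (adjusted p = 0.0524). Over all 3 zones, limma's F test of a difference in BAP effect gave adjusted p = 0.0992 for CLE41, 0.976 for CLE44 and 0.519 for MOL1, where 7.57% of probe sets were called. The effect in transition cambium minus that in procambium was -1.0 for CLE41 (-2.08 to 0.08, adjusted p = 0.304), where 5.27% of probe sets were called. For MOL1 the effect in cambium minus that in procambium was -0.69 (-1.55 to 0.16, adjusted p = 0.314).

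Averaged over the 3 zones, CLE41 was 1.60-fold higher with BAP (log2 0.68, standard error 0.20, adjusted p = 0.0187), and 30.2% of probe sets were called, 15.2% as higher. The call was lost without untreated procambium replicate 1 (0.53, adjusted p = 0.0689). MOL1 differed by 0.08 on average (95% interval -0.28 to 0.44, adjusted p = 0.752). For CLE44 no average size is given, because both procambium groups were at the floor (adjusted p = 0.795).

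**Figure D4:**
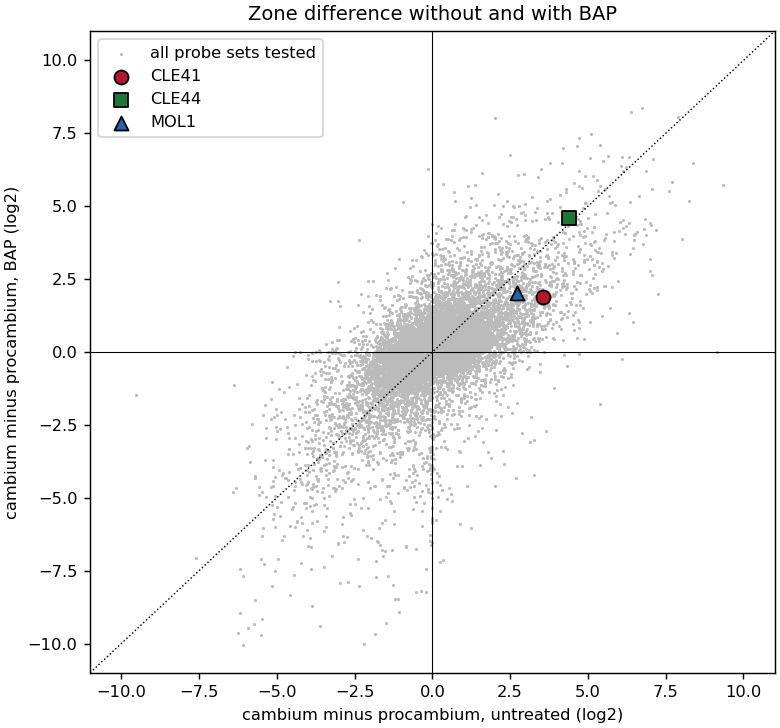
Each point is a probe set, with its log2 difference between cambium and procambium in untreated roots on the horizontal axis and after BAP on the vertical axis, and a dotted line where both are equal. CLE41 (3.57 and 1.90) and MOL1 (2.71 and 2.02) lie under that line, and all 3 genes are among probe sets that are higher in cambium in both comparisons. The position of CLE44 depends on the background model, because its procambium arrays are at the floor.

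ARR5::GFP cells, the sort labelled procambium and lateral root cap, were compared with the apical ARR15::GFP sorts. CLE41 averaged 4.31 ± 0.70 in ARR5::GFP cells (SD, n = 2) and was at least 3.31-fold lower than in BAP-treated procambium (adjusted p = 0.000271). Against untreated procambium, where 1 array reached log2 5, the same rule gave a bound of 1.11-fold. The arrays of these groups overlapped, so a lower level is not established by it. The fitted difference, which rests on values below log2 5, was -0.84 (95% interval -1.75 to 0.07, adjusted p = 0.149). That CLE41 value ran between -1.34 without ARR5::GFP replicate 2 and -0.35 without ARR5::GFP replicate 1, uncalled in both cases, and was -1.28 without untreated procambium replicate 1 and -0.40 without replicate 2. MOL1 averaged 7.29 ± 0.26 in ARR5::GFP cells, which differed by -0.24 from BAP-treated procambium (-0.89 to 0.41, adjusted p = 0.594) and by 0.16 from untreated procambium (-0.55 to 0.87, adjusted p = 0.762). CLE44 was at the floor in all 3 groups. The share of probe sets called was 31.4% against BAP-treated procambium, with 17.8% lower, and 31.5% against untreated procambium, with 17.5% lower. Seedling age, reporter and dissection differ together between these groups, and BAP differs as well in the comparison with BAP-treated procambium. These cannot be told apart.

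On the receptor side of the TDIF pathway, PXL1 (AT1G08590) and PXL2 (AT4G28650), the closest relatives of PXY in Arabidopsis, were the 2 genes of 21 in the TDIF signalling list with a probe set of their own. Both ran opposite to the precursor genes along the untreated root. PXL2 read 5.47, 5.71 and 5.24 in cambium and 9.62 and 8.32 in procambium, a difference of -3.50 (standard error 0.78, adjusted p = 0.00314). It was -2.84 without untreated procambium replicate 1 and -4.15 without replicate 2, and called in both cases. PXL1 read 4.35, 3.49 and 4.00 in cambium and 7.05 and 5.97 in procambium, at least 2.85-fold lower in cambium (adjusted p = 0.00233). The groups did not overlap for either gene, and 17.4% of probe sets were called lower in this comparison.

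Between transition cambium and procambium without BAP, PXL1 was at least 2.85-fold lower in transition cambium (adjusted p = 0.0284), a call lost without transition cambium replicate 1 (adjusted p = 0.163) or 2 (0.0522) or procambium replicate 1 (0.19). PXL2 differed by -2.15 (standard error 0.85, adjusted p = 0.0737), and 12.5% of probe sets were called lower. After BAP, cambium minus procambium was -1.46 for PXL1 (adjusted p = 0.0334) and -1.51 for PXL2 (adjusted p = 0.118), with 14.7% called lower. Here the groups were not separate: PXL2 read 6.67 in cambium replicate 1 and 6.27 in procambium replicate 1, and PXL1 read 5.23 on both of these arrays. Transition cambium minus procambium was -1.65 for PXL1 (adjusted p = 0.0193) and -2.08 for PXL2 (adjusted p = 0.0354), with 13.5% called lower. In BAP-treated cambium and in BAP-treated transition cambium, PXL1 reached log2 5 on 1 of 3 arrays and PXL2 on 2 of 3. These sizes therefore rest in part on dim values. These 3 calls after BAP were each lost without some single arrays, with adjusted p-values up to 0.147, 0.091 and 0.192. The BAP effect in procambium was -0.40 for PXL1 (adjusted p = 0.708) and -1.60 for PXL2 (adjusted p = 0.206).

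In ARR5::GFP cells PXL2 read 5.50 and 5.19, a log2 difference of -3.63 from untreated procambium (standard error 0.83, adjusted p = 0.00335 in limma). That value was -2.97 without untreated procambium replicate 1 and -4.28 without replicate 2. PXL1 read 5.84 and 4.35 there (difference -1.42, adjusted p = 0.103). That PXL1 value was -2.16 and called without ARR5::GFP replicate 1 (adjusted p = 0.0358), and without any one of the other 3 arrays it lay between -1.96 and -0.67 and was not called. Across the 18 arrays PXL1 correlated with CLE41 at r = -0.67 and with MOL1 at r = -0.72, and PXL2 at r = -0.46 and -0.51, as a description of arrays that share 7 groups.

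**Figure D5:**
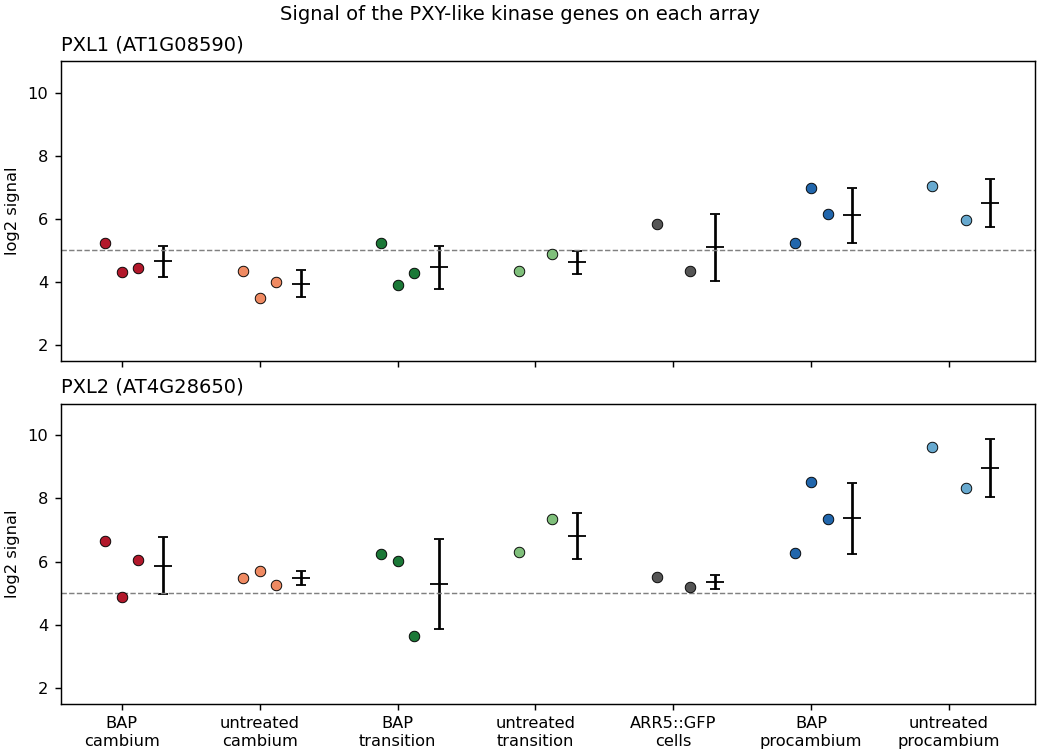
The plot gives the log2 signal (vertical axis) of PXL1 and PXL2 on each array by group (horizontal axis), with the mean and SD beside the points and a dashed line at log2 5. Both genes have their highest mean in untreated procambium, where PXL2 reads 9.62 and 8.32, overlapping BAP-treated procambium, and PXL1 does not reach log2 5 on any untreated cambium or transition cambium array.

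Other CLE peptide genes were not seen. Of the 25 in the list 6 have a probe set of their own (CLV3, CLE21, CLE26, CLE27, CLE40 and AT5G59305), and none reached log2 5 on any array. None of the 8 receptor-like kinase genes listed beside PXY for CLE signalling and cambium, RUL1 among them, has a probe set annotated to it alone, and their levels are not described here.

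Genes whose signal ran most like that of each member were ranked by Pearson r over the 18 arrays among 1050 other genes with a symbol. These arrays share 7 groups, so r mostly reflects the differences between groups. For CLE41 the 5 highest were TBL36 (r = 0.945), the expansin-like gene EXLA3 (0.940), the defensin gene PDF2.1 (0.937), MAP1C (0.930), which encodes a methionine aminopeptidase, and the beta-expansin gene EXPB3 (0.927). For CLE44 they were UGT78D1, which adds a sugar to flavonols (r = 0.953), THIC of thiamine synthesis (0.929), the trihelix transcription factor gene PTL (0.929), UGT88A1 (0.922) and the beta-glucosidase gene BGLU45 (0.915). For MOL1 they were EXPB3 (r = 0.955), the alpha-expansin gene EXPA4 (0.95), psbA of photosystem II (0.948), RING1 (0.943) and PTL (0.939).

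Over the 7 group means the same r lay between 0.94 and 0.99 for these genes, but the ranks moved. By group means only MAP1C, UGT78D1, THIC, EXPA4 and RING1 stayed among the 5 highest for their member. PDF2.1 had rank 21 for CLE41, UGT88A1 rank 18 for CLE44 and PTL rank 27 for MOL1. MAP1C, like CLE41, had an intermediate level in BAP-treated procambium, with group means of 7.53 in BAP-treated cambium, 6.12 in BAP-treated procambium, 4.96 in untreated procambium and 3.88 in ARR5::GFP cells. PTL was near the floor where CLE44 was, with 7.14 in BAP-treated cambium and 2.19 in BAP-treated procambium. Its highest mean was in BAP-treated transition cambium, 7.575, where CLE44 averaged 5.37, below its level in BAP-treated cambium. The members correlated with each other at r = 0.90 for CLE41 and MOL1, 0.91 for CLE44 and MOL1 and 0.85 for CLE41 and CLE44. Many other genes reached such values. Among the 1050 genes ranked for CLE41, MOL1 had rank 12 and CLE44 rank 30. For CLE44, MOL1 had rank 7 and CLE41 rank 30, and for MOL1, CLE44 had rank 18 and CLE41 rank 22. With group means taken out, the deviations of the 18 arrays correlated at 0.08 for CLE41 and MOL1, 0.02 for CLE44 and MOL1 and 0.04 for CLE41 and CLE44. Only 11 of these deviations are free, and CLE44 hardly deviates on arrays at its floor. A relation within groups can therefore not be judged from these values.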

How the data were processed

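The deposited values are log2 signals per probe set. The authors used GCRMA, as the submitters' processing notes say, while its version and which arrays were normalized together are not stated there. RNA was amplified in a two-cycle protocol, per the labels' protocols. GCRMA puts dim probe sets near a common floor. Where a group was below log2 5 on all its arrays, its fold difference is therefore given as a lower bound, from the other group's mean against log2 5. The adjusted p beside such a bound is from the fit on the deposited values and does not test the bound. The 64 controls were removed, and a probe set was kept if at least 2 arrays reached log2 5. limma 3.58.1 in R 4.3.3 fitted a mean per group on 16 arrays (13202 probe sets, 10 residual degrees of freedom), or on 18 (13465, 11) for ARR5::GFP cells, with an intensity trend. A call is an adjusted p (Benjamini-Hochberg, all probe sets kept) under 0.05, and the fit was tested on simulated data. Members, lists and tests were chosen with earlier results of these data known. Named genes are the members, list genes and the 5 genes most like each member. Genes were named by GEO's platform annotation and RefSeq symbols, with 13436 of 13513 single-gene probe sets matched. Arrays give no read depth. The labels give no batch, so batch and group cannot be told apart. One untreated procambium title carries 2 numbers, of which its replicate number 2 was used. Coordinates and sequences were not used here. Alternatives covered scaling, filter, floor, variance model, arrays fitted, replicate block and each array left out.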

Additional observations from a re-analysis of the deposited data

Results flagged for a closer look

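The BAP effect on CLE41 in cambium minus that in procambium was -1.67 in log2 units (limma, adjusted p = 0.0424, standard error 0.48), which passed the test of the difference itself. All 3 BAP-treated procambium arrays lay above both untreated ones, while in cambium the arrays overlapped. Leaving out single arrays moved the difference between -2.11 and -1.23, and the call held in 2 of 11 cases. Groups of 2 or 3 arrays are too small for single arrays to be tested as outliers.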

How the results depend on the processing

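Of 158 alternatives for the differences of cambium or transition cambium against procambium in CLE41, CLE44 and MOL1, 156 kept direction and call, and the other 2 were CLE44 in transition cambium with values below log2 5 raised to log2 5 (0.17 untreated and 0.74 after BAP). The BAP effect on CLE41 in procambium was 1.13 to 2.01 without 1 array and 1.57, no longer called, with only its 5 arrays, and its mean over zones was 0.53 to 0.82. The CLE41 difference between the BAP effects in cambium and procambium was not called with median centring (-1.67), quantile normalization (-1.62), no filter (-1.67), values raised to log2 5 (-1.53) or only the groups compared (-1.67), and was -2.11 to -1.23 without 1 array. Same-numbered arrays did not deviate together (median r = -0.04 over 36 pairs; 2 of 16 arrays correlated best with their own number), so numbers were not taken as pairs. With the replicate block that CLE41 difference was -1.71 (adjusted p = 0.0728), and no other call of the 3 genes changed.

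Small differences changed sign without 1 array. For CLE41 the ranges were -0.20 to 0.077 for BAP-treated cambium over transition cambium and -0.23 to 0.035 for BAP in cambium. For CLE44 they were -0.35 to 0.94 for BAP in transition cambium, and, in fits on procambium values at the floor that measure no size, -0.067 to 0.36 for BAP on average and -0.32 to 0.96 for its effect in transition cambium minus procambium. For MOL1 they were -0.0047 to 0.47 for untreated cambium over transition cambium, -0.0050 to 0.15 for BAP on average and -0.043 to 0.36 for ARR5::GFP cells over untreated procambium. For PXL1 the range was -0.94 to 0.15 for BAP in procambium. CLE44 in BAP-treated cambium over transition cambium kept its sign, at 0.70 to 1.98.

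Counts of probe sets called moved by over 1.5 times in several comparisons. Without 1 array they were 1922 to 2975 for untreated transition cambium over procambium (3720 with all), 16 to 214 for untreated cambium over transition cambium (100), 76 to 176 after BAP (167), 2567 to 3422 for BAP-treated transition cambium over procambium (3863), 1011 to 1794 (1962), 503 to 864 (1241) and 1109 to 1781 (1855) for BAP in cambium, transition cambium and procambium, and 574 to 1031 for the F test (999). They were 741 to 1142 (1184) and 358 to 735 (696) for the BAP effects in cambium and in transition cambium minus that in procambium, and 2676 to 4145 (4244) and 2463 to 4055 (4224) for ARR5::GFP cells over untreated and BAP-treated procambium. With only the groups compared, 2771 probe sets were called for untreated cambium over procambium (4720), 1637 for transition cambium over procambium, 5 for cambium over transition cambium, 863 for BAP in procambium, 408 for its difference to transition cambium, and 1507 and 2351 for ARR5::GFP cells. Without the filter 82 were called for BAP-treated cambium over transition cambium. With only the groups compared, CLE44 in untreated transition cambium over procambium and CLE41 in ARR5::GFP cells over untreated procambium failed the filter and have no value, nor do the mean over zones and the F test, which use all groups. The cause of these changes was not tested.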
